A study of Mus musculus with 2 samples.

Results

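The genes described here are 10 genes through which arginine is taken up, turned into nitric oxide or ornithine, and passed on to proline and polyamines: Slc7a2, Nos2, Ass1, Asl, Arg1, Arg2, Oat, Odc1, Srm and Sat1. They were found by symbol in the platform's probe annotation and are covered by 12 of the 35556 probe sets on the arrays. Of these genes, 9 have at least 1 probe set that names them alone, out of 19938 such genes, and Ass1 has 2 probe sets that both also list the pseudogene Gm5424. The RNA came from mouse colonic macrophages, taken from the lamina propria (the connective tissue under the gut epithelium) by flow sorting for CD45, the MHC class II molecule IAb, CD11b and F4/80 and against CD103. The control array (n = 1) holds RNA from mice on plain drinking water for 5 days. The DSS array (n = 1) holds RNA from mice given 3% (wt/vol) dextran sulfate sodium, a polymer that damages colonic epithelium and causes colitis, in the water for 5 days. The labels used here give no strain, sex, age or number of animals behind an array. With 1 array in each group there is no replicate error and no test, so all differences are between these 2 arrays, and the treatment cannot be told apart from any difference between mice, sorts or hybridisations.

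Macrophages use arginine in competing ways. Inducible nitric oxide synthase, encoded by Nos2, oxidises arginine to nitric oxide and citrulline, and argininosuccinate synthase (Ass1) and argininosuccinate lyase (Asl) turn citrulline back into arginine. Arginase splits arginine into urea and ornithine, in the cytosol (Arg1) or in mitochondria (Arg2). Ornithine can go to proline and glutamate through ornithine aminotransferase (Oat), or to the polyamine putrescine through ornithine decarboxylase (Odc1), from which spermidine synthase (Srm) makes spermidine. Spermidine/spermine acetyltransferase (Sat1) starts polyamine breakdown and export, and the cationic amino acid transporter CAT2 (Slc7a2) brings arginine into the cell. Nos2 is classically linked to macrophages activated by interferon gamma and bacterial products, and Arg1 to activation by interleukin 4 or 13 and to some inflammatory myeloid cells.

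Genes for nitric oxide synthase, for both arginases and for the first step of arginine resynthesis from citrulline were far higher on the DSS array. The polyamine genes Odc1, Srm and Sat1 differed little between the arrays. Arg2 was 13.5-fold, Arg1 10.8-fold, Ass1 with its pseudogene 9.997-fold, Nos2 6.79-fold and Slc7a2 2.56-fold higher in DSS. None of the control signals behind these 5 folds was more than 0.30 (log2) above the control array's median of 5.70, and signals that dim cannot be told from background, so the folds are not exact. Asl, Oat, Odc1, Srm and Sat1 lay within 2-fold, with log2 differences (DSS minus control) of -0.55 to 0.14. Thus 5 of the 10 genes were higher in DSS by 2-fold or more and 0 were lower by that size, or 4 and 0 of the 9 with a probe set of their own. Of all 11163 genes past the signal rule, which asks for a signal at or above the array's median on at least 1 array, 3.99% were at least 2-fold higher in DSS and 3.03% were lower by that size. All 10 genes met that rule, but Arg1, Nos2 and Slc7a2 met it on the DSS array alone, so for these 3 passing the rule already required a difference. The median log2 difference was 0.75 over the 10 genes, 0.14 over the 9 with a probe set of their own and -0.03 over all genes past the rule.

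**Figure D1:**
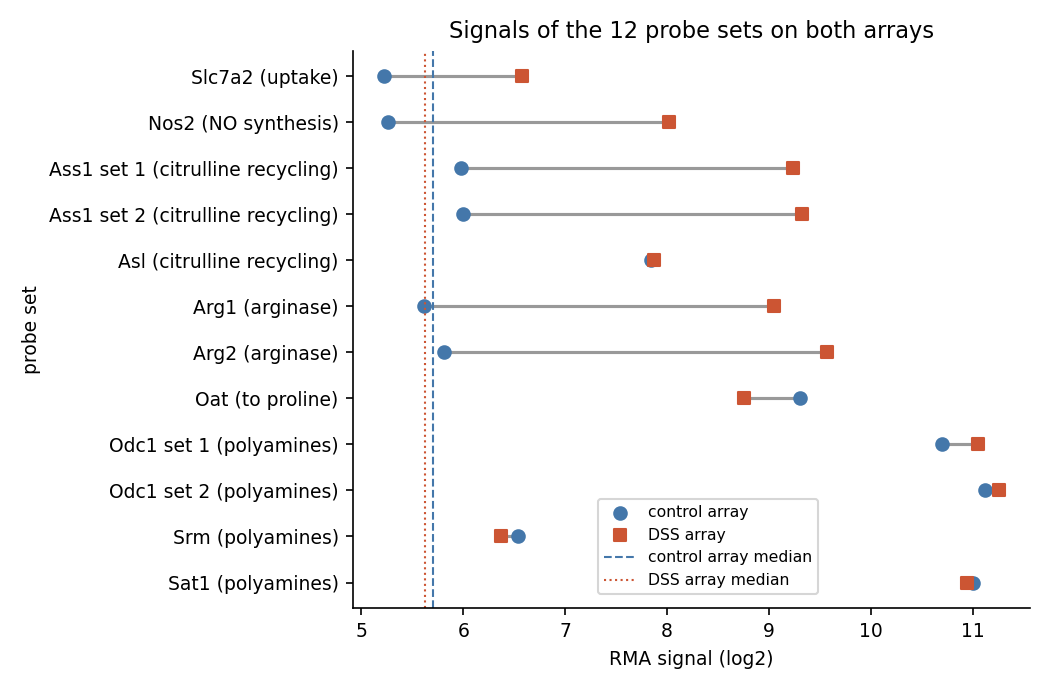
RMA signal (log2) of each of the 12 probe sets on the control array (circles) and the DSS array (squares), ordered by role, with 1 array in each group and dashed and dotted lines at the array medians of 5.70 and 5.62. The probe sets of Slc7a2, Nos2, Ass1, Arg1 and Arg2 lie near the medians in control and between 6.58 and 9.57 in DSS, and the others differ by 0.55 or less.

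Sequence upstream of the start site is shown for Ass1, the one gene at least 2-fold higher that had an entry in the RefSeq promoter table (GRCm38.p6), and for Odc1, whose product is the first enzyme of polyamine synthesis and which lay within 2-fold. Oat and Sat1 also had entries, and Arg1, Arg2, Nos2, Slc7a2, Asl and Srm were not matched. Each window is the 250 bases before the annotated start, 5′ to 3′ on the gene's strand, and capitals mark every match to the patterns searched.
Ass1 promoter, chr2:31470020-31470269, plus strand: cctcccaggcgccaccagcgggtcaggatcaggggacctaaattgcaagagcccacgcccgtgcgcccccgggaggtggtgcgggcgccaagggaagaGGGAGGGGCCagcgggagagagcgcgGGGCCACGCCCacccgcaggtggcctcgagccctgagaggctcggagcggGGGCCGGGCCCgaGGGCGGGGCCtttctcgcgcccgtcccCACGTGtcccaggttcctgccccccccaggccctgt
Odc1 promoter, chr12:17544623-17544872, plus strand: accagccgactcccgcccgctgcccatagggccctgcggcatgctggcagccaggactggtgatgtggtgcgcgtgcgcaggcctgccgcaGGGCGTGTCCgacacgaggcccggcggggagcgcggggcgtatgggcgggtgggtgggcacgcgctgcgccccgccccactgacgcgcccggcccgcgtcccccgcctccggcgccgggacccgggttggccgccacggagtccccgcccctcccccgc
The patterns were searched on both strands of 32851 windows of the same length.

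The Ass1 window held 1 E-box, CACGTG, 36 to 31 bases before the start. That pattern occurred in 6.02% of all windows. The HIF pattern, ACGTG with any base before it, includes every E-box and occurred in 16.5%. The NF-kB pattern, GGG and CC with 5 bases of any kind between them, matched 6 times in the Ass1 window over both strands, in 4 separate places. It matched 1 time in the Odc1 window and is a loose pattern, found in 45.8% of all windows. Both windows are rich in G and C, at 75.6% in Ass1 and 80.0% in Odc1 against a median of 52.4% over all windows.

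The C/EBP pattern TTNNGNAA, found in 36.8% of windows, matched 1 time each in Oat and Sat1. The CCAAT box, found in 33.8%, matched 2 times in Oat. The TATA box TATAAA occurred in 12.4% of all windows and in none of these 4. The same was true of the AP-1 pattern TGANTCA (6.75% of all windows) and the CRE pattern TGACGTCA (1.55%). The STAT pattern TTCNNNGAA (7.02%), the STAT6 pattern, which has 1 more base in its gap (5.85%), and the IRF pattern, GAAA repeated after 2 bases of any kind (2.98%), also had no match in them. A match is a run of letters and no evidence of binding, and the arrays carry no measure of it.

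Among the steps of uptake and nitric oxide synthesis, Slc7a2 and Nos2 were both higher on the DSS array from dim control signals. The Slc7a2 probe set (10571444) read 5.22 in control and 6.58 in DSS (log2), a difference of 1.36. Its control signal was below the array median and its DSS signal was 0.96 above it. Nos2 (probe set 10379228) read 5.26 in control and 8.02 in DSS, a difference of 2.76, and its DSS signal was 2.40 above that array's median. No detection calls came with the signals, so these dim control values cannot be told from background and the folds start from an uncertain base. RMA, the method behind the deposited values, compresses differences from dim signals.

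The citrulline recycling pair divided. The 2 probe sets assigned to Ass1 and Gm5424 had control signals of 5.98 and 5.9998 and DSS signals of 9.23 and 9.32, for differences of 3.26 and 3.32 that lay 0.06 apart. Because both list the pseudogene as well, signal from Ass1 and from Gm5424 transcripts cannot be told apart, and as the same 2 genes are listed for each they are not independent measures. Asl (probe set 10534120), which encodes the next enzyme of the same path, read 7.84 in control and 7.87 in DSS, a difference of 0.03. Both Asl signals were over 2 log2 units above the array medians, by 2.14 and 2.25.

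Both arginase genes were higher in DSS. Arg1 (probe set 10368343), the cytosolic form, read 5.61 in control and 9.05 in DSS, a difference of 3.44. Arg2 (probe set 10396831), the mitochondrial form, read 5.81 in control and 9.57 in DSS, a difference of 3.76. The control signal of Arg1 was 0.09 below and that of Arg2 0.11 above the control median of 5.70, and signals that dim cannot be told from background. On the DSS array they were 3.43 and 3.95 above the median of 5.62. Differences of at least 4-fold in this direction were seen in 125 genes, or 1.12% of those past the signal rule.

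**Figure D2:**
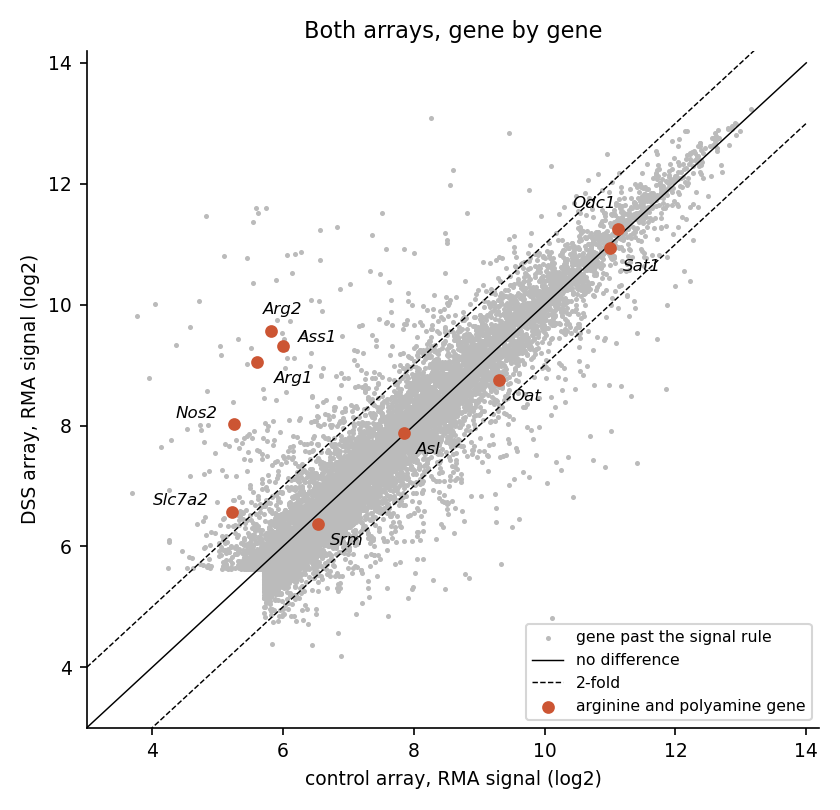
RMA signal (log2) of the 11163 genes past the signal rule on the control array (x axis) and the DSS array (y axis), with the 10 named genes in colour, a solid line at no difference and dashed lines at 2-fold. Arg1, Arg2, Ass1, Nos2 and Slc7a2 lie above the upper dashed line, with Slc7a2 nearest to it at a difference of 1.36, and the other 5 genes lie between the dashed lines.

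Downstream of ornithine, no gene differed by 2-fold. Oat (probe set 10568568), which leads to proline and glutamate, read 9.30 on the control array and 8.75 after DSS, which is 1.46-fold lower and the lowest difference of the 10 genes. Of all genes past the signal rule 90.1% had a higher difference than Oat. Odc1 had 2 probe sets, 10394770 and 10582295, with control signals of 10.70 and 11.12 and DSS signals of 11.05 and 11.26. Their differences of 0.35 and 0.14 lay 0.22 apart, within the pooled SD of 0.28 between probe sets of the same gene that 641 genes gave. Srm (probe set 10510391), the spermidine synthase gene, read 6.53 and 6.37, and Sat1 (probe set 10607467), the acetyltransferase gene, read 11.00 and 10.94, for differences of -0.16 and -0.06. The Odc1 probe set with the higher signal (10582295) and Sat1 turned sign with the scaling of the arrays, and both genes are given without a direction. The differences became -0.02 under loess centring for that Odc1 probe set and 0.03 under median centring for Sat1. As deposited, the mean of both Odc1 probe sets was 0.245. All of these probe sets were above both array medians, Srm by the least (0.83 in control and 0.75 in DSS).

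The genes around these steps, in 6 lists, showed few differences of 2-fold. Of 87 genes listed, 76 had a probe set with 1 symbol and 60 were past the signal rule. Of the 60, 3 (5%) were higher in DSS by 2-fold or more and 2 (3.33%) were lower, near the shares over all genes of 3.99% and 3.03%, and their median difference was -0.03, the same as that of all genes past the rule. Genes for other carriers of arginine and ornithine had 0 of 5 members past the rule at 2-fold and a median of -0.13. Slc7a6, a light chain of a cationic and neutral amino acid exchanger, read 6.46 in control and 6.93 in DSS, and Slc7a7, a related light chain, 9.23 and 8.84. Slc7a1, which encodes the transporter CAT1, was named after its values were seen and read 7.21 and 7.07, a difference of -0.13.

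In the list of nitric oxide synthases, their cofactor and nitric oxide sensing, 1 of 10 genes was at least 2-fold lower and 0 were higher, with a median of -0.13. Ddah2 belongs to a gene family linked to the breakdown of methylarginine inhibitors of nitric oxide synthase. It read 6.25 in control and 5.14 in DSS, a difference of -1.11 that was -0.99 under loess centring. Its DSS signal was below the array median. Pts, whose product makes a precursor of the synthase cofactor tetrahydrobiopterin, lay furthest the other way at 8.51 and 9.49, a difference of 0.98 that passed 2-fold under median centring at 1.07. Gch1, named after its values were seen and encoding the first enzyme of that cofactor's synthesis, read 9.38 and 9.93. The neuronal and endothelial synthase genes Nos1 and Nos3, also named after their values were seen, did not meet the signal rule, at 5.14 and 5.52 for Nos1 and at 5.31 and 4.99 for Nos3.

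The list of the urea cycle, creatine and agmatine had the lowest median of the 6, at -0.42, with 0 of 6 genes past the rule at 2-fold. Gatm and Gamt, the genes for the enzymes that make creatine from arginine and glycine, had control signals of 10.06 and 7.78 and DSS signals of 9.23 and 7.29. Prmt1, an arginine methyltransferase gene, lay furthest the other way with a difference of 0.22. Cps1 and Otc, the urea cycle genes for the steps that make citrulline, were named after their values were seen. Neither reached the median of either array. Cps1 read 4.46 and 4.45, and Otc 3.76 and 3.62.

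The list from ornithine to proline and glutamate had a median of -0.29, with 0 of 7 at 2-fold. Glul, the glutamine synthetase gene, read 11.75 in control and 10.82 in DSS, a difference of -0.92 that passed 2-fold under loess centring. Pycr3, a pyrroline-5-carboxylate reductase gene listed under its older symbol Pycrl, had a difference of -0.50, and Aldh18a1, which encodes the enzyme that makes pyrroline-5-carboxylate from glutamate, one of 0.17. In the polyamine list 0 of 10 genes were at 2-fold and the median was -0.01. Smox, the spermine oxidase gene, read 7.98 and 8.86, a difference of 0.88, and Slc18b1, a vesicular polyamine transporter gene, read 5.95 and 5.21, a difference of -0.73. Of the 18 genes in the polyamine list, 13 had a probe set with 1 symbol. Sms and Oaz1 had only probe sets that list several symbols, and Amd1, Amd2 and Paox had none, so these genes were not read here.

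The list of receptors, kinases and transcription factors that act on Nos2 or Arg1 had a median of 0.19, and of its 22 genes past the rule 3 were higher by 2-fold or more and 1 was lower by that size. Hif1a, the oxygen-regulated transcription factor gene, read 9.94 in control and 11.47 in DSS, a difference of 1.52. Il13ra1, a receptor chain for interleukins 4 and 13, read 8.63 and 9.83, a difference of 1.20. Jak2, a kinase of cytokine receptors including that of interferon gamma, had a difference of 1.08, and 0.96 under loess centring. Klf4, a transcription factor linked to alternative activation, read 8.75 and 7.67, a difference of -1.08 that was -0.99 under median centring.

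**Figure D3:**
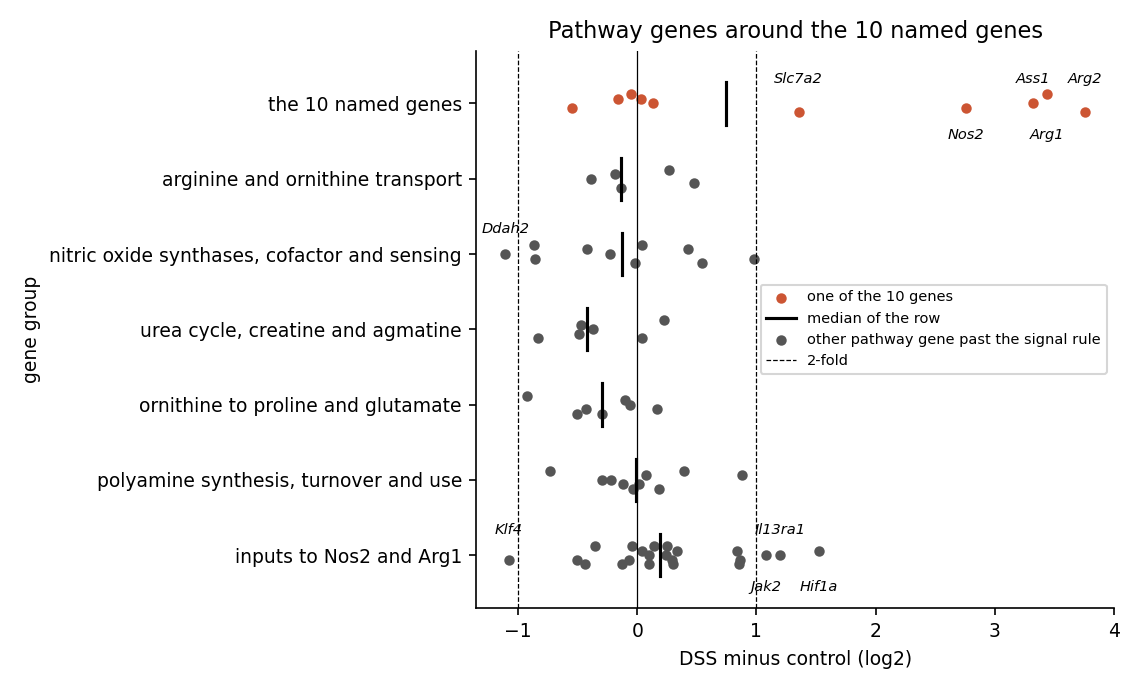
Log2 difference (DSS minus control) of the 10 named genes (top row) and of the 60 pathway genes past the signal rule in 6 lists (other rows), 1 point per gene with a bar at each row's median and dashed lines at 2-fold. Medians of the 6 lists lie between -0.42 and 0.19, and the genes past the dashed lines are labelled.

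For each gene at least 2-fold higher, the genes with the most similar pair of signals were taken by Euclidean distance over the 2 arrays, which is a likeness in 2 values only. Those nearest to Arg1 were Trem3 (distance 0.16), Chil1 (0.26) and B3gnt5 (0.44). Arg2 had Inhba (0.18), Vcan (0.20) and Lrg1 (0.24), and the Ass1 probe set had Olr1 (0.07), Lrg1 (0.12) and Inhba (0.21). Nos2 had Il18rap (0.05), Htr7 (0.25) and Arhgap24 (0.26), and Slc7a2 had Krt5 (0.05), Lipg (0.10) and Clca3b (0.12). The distance sets levels of different probe sets side by side, so it says only which genes had similar signals on these arrays. Arg2 and Ass1 had similar signals themselves, so their lists overlap.

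Markers of other myeloid cells were also higher on the DSS array, beside Arg1, Arg2, Ass1 and Nos2. Single genes named from the marker lists of other cell types were chosen after their values were seen. Of 13 neutrophil markers 11 were at least 2-fold higher in DSS, and their summed signal (linear scale) was 2035 in control and 30713 in DSS. Ly6g, the antigen that defines mouse neutrophils, read 4.04 and 10.01, while Elane and Mpo, genes of early granulocytes, had control signals of 5.06 and 5.34 and DSS signals of 4.77 and 5.64. Of 6 monocyte markers measured, 5 reached 2-fold in the higher direction and F13a1 alone in the lower, with a summed signal of 4454 and 14218. RMA signals have no value of 0, and on the control array 5 of the 13 neutrophil markers reached the array median against 12 on the DSS array. The sort asked for IAb and F4/80, a gate that should leave neutrophils out, but the purity of the sorted cells was not tested. The part of these cells in the differences of the arginine genes was not tested, and a change in the mixture of cells cannot be told apart from a change in RNA per cell.

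The 9 macrophage markers measured all stayed within 2-fold, from -0.99 for Cx3cr1, close to that size, to 0.83 for Fcgr1. Their median difference was -0.61, and their summed signal was 24060 in control and 17849 in DSS. Of the sort's antigens, Ptprc (CD45) read 11.54 and 11.94, H2-Ab1 (IAb) 11.99 and 12.13, Itgam (CD11b) 9.59 and 10.19 and Adgre1 (F4/80) 11.65 and 10.82 in control and DSS. Itgae, the excluded CD103, was below both medians at 4.89 and 4.91. Of 8 epithelial markers, a cell type that also expresses arginine enzymes, 0 were at least 2-fold apart, with a summed signal of 710 and 977. The 4 past the signal rule were all higher in DSS, by 0.07 to 0.83, with a median difference of 0.52. Car1 read 8.004 and 8.84 and Krt8 7.97 and 8.05, while Epcam was below both medians at 4.36 and 4.70. In the eosinophil, mast cell and dendritic cell lists, 4, 1 and 5 genes passed the signal rule. Of these, 0 were at least 2-fold higher and 1, of the dendritic cell list, was at least 2-fold lower. The 5 dendritic cell genes had a median difference of 0.80, from -1.44 for Siglech to 0.95 for Ccr7, close to 2-fold. The 1 mast cell gene, Kit, was also close to 2-fold higher, at 0.96. In the T and NK cell, B and plasma cell, and stromal lists, 1, 3 and 7 genes passed. Of these, 1 of the B and plasma cell list was higher by that size. The 1 T and NK gene, Cd4, was lower by that size, at 9.04 in control and 7.39 in DSS. Cd3d, Cd3e and Cd3g did not pass. Over all genes past the rule the shares were 3.99% higher and 3.03% lower.

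**Figure D4:**
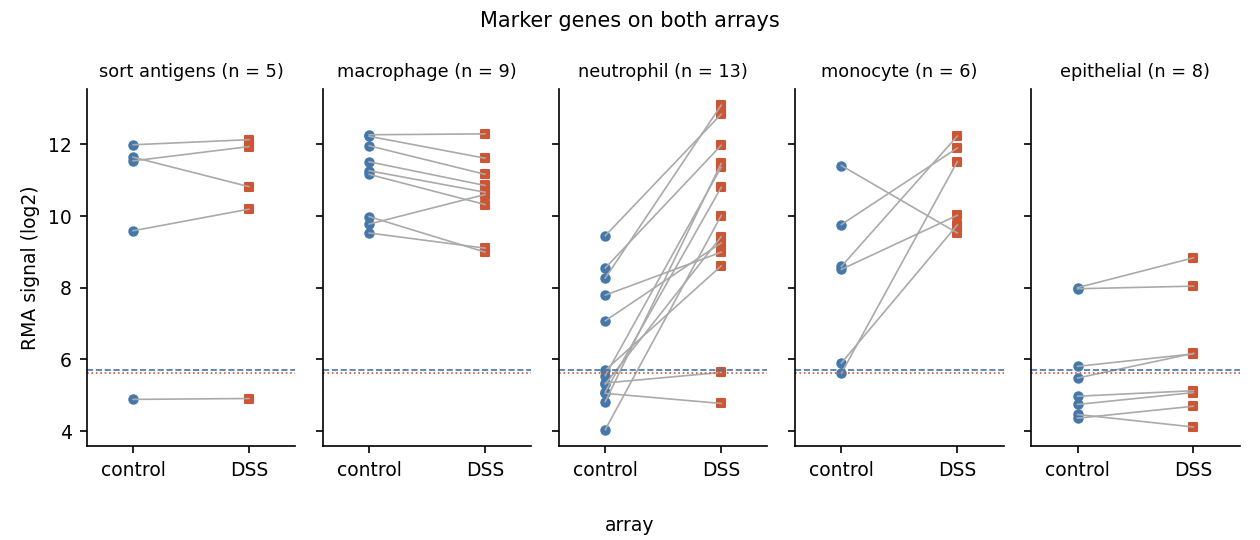
RMA signal (log2) of marker genes on the control array (circles) and the DSS array (squares), 1 line per gene, for the sort's antigens and markers of macrophages, neutrophils, monocytes and epithelium, with dashed and dotted lines at the control and DSS array medians. Neutrophil markers span 4.04 to 9.45 in control and 4.77 to 13.1 in DSS, and epithelial markers 4.36 to 8.004 and 4.12 to 8.84.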

How the data were processed

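The deposited table, made by the authors, holds log2 values of 35556 probe sets on each of 2 arrays. RMA (background correction, quantile normalisation and summary of probes) was used, per the submitters' processing notes, which give no version. Its settings and the genome build were not given in the sources used here. No rescaling was applied. Array medians rest on 28939 probe sets, without the 6617 whose identifiers lie below the lowest annotated one.

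Genes were named from the platform annotation, which lists 21789 probe sets with 1 symbol, 1621 with several and none for 12146. Symbols were checked by Entrez identifier against RefSeq (21698 matched, 0 changed). A gene took its probe set of 1 symbol with the highest mean signal, and Ass1 its shared probe sets. A gene counted when at or above the array median on at least 1 array, and sizes were counted at 2-fold. The number of arrays limits the precision, and no test was made.

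The genes and lists were chosen with earlier results of these data known. Named genes were all 10 members, pathway genes at least 2-fold apart or else the 2 furthest of a list, the gene furthest the other way, the 3 nearest genes in both signals, and the sort's antigens. Single genes of other marker lists, and those so described in the text, were named after their values were seen. Alternatives covered scaling, probe set choice, a floor, the signal rule, the size and the mean of a list. The steps were tested on simulated data. Python 3.11.15, numpy 2.4.6, pandas 2.3.3, statsmodels 0.14.6 and matplotlib 3.10.9 were used.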

Additional observations from a re-analysis of the deposited data

How the results depend on the processing

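Of 134 values recomputed under the alternatives, 130 stayed within 1.5 times a count or within 0.28 (the pooled SD among a gene's probe sets) of a log2 value. The other 4 were counts over all genes, which followed from the size asked for: 1100 genes higher and 982 lower at 1.5-fold, and 183 and 118 at 3-fold, against 445 and 338 at 2-fold. Over the 5 alternatives that apply to single genes, Arg1 had differences of 3.44 to 3.52, Arg2 3.76 to 3.84, Ass1 3.29 to 3.41, Nos2 2.76 to 2.85 and Slc7a2 1.36 to 1.47. Arg1, Arg2, Nos2 and Slc7a2 have 1 probe set each, so the choice of probe set could not move them. The floor left them unchanged, so their ranges come from the scaling alone and do not test the dim control signals. The count of named genes at least 2-fold higher was 3 under the stricter signal rule and at 3-fold, where Slc7a2 no longer counts, 5 with shared probe sets and 4 otherwise. The median of the polyamine list was 0.07 under median centring and 0.13 under the stricter signal rule, and its mean was 0.01, so its sign is not settled. The mean of the transport list was 0.01 against a median of -0.13. Of the 60 pathway genes, 4 were at least 2-fold higher and 1 lower under median centring, and 2 and 2 under loess centring. No paired analysis was possible because each group has 1 array. Leaving out a replicate was likewise not possible.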
